A study of Mus musculus with 6 samples.

Results

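The genes described here make cholesterol, control its synthesis, or move it out of and into the cell. They were taken by symbol from a set of 29, so that 29 of the 47643 genes in the count table are covered. All 29 had enough counts to be tested, among 12760 tested genes. The set holds 7 enzymes of the mevalonate arm, 11 enzymes of the sterol arm, 5 genes of SREBP and its sterol-dependent control, 1 sterol carrier, both LXR receptors and 3 targets of LXR. RNA came from invariant natural killer T (iNKT) cells, T cells whose receptor recognises lipids on CD1d. The cells were of the NKT1 subset, defined by the transcription factor T-bet, and were taken from thymi of BALB/c mice of wild-type genotype. CD4-positive cells gave 3 libraries, and CD4-negative cells gave 3. The groups share tissue, strain and genotype, and the labels state neither a treatment nor an age, nor whether replicates came from separate animals.

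Cells build cholesterol from acetyl-CoA, first along the mevalonate arm to farnesyl diphosphate and then along the sterol arm from squalene to cholesterol. When sterols are scarce, SCAP carries the precursor of the transcription factor SREBP2 out of the endoplasmic reticulum, and the released factor raises transcription of nearly every enzyme of the route. The INSIG proteins hold SCAP back when sterols are plentiful. Oxysterols, which accumulate with excess cholesterol, activate the LXR receptors, which raise the efflux pumps ABCA1 and ABCG1 and the ubiquitin ligase MYLIP. In T cells sterol synthesis is known to increase with activation and division.

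Libraries held 40480468 to 53145898 estimated counts. Levels are CPM, counts relative to the library total, after TMM scaling, a correction for RNA composition. Log2 differences are CD4-positive minus CD4-negative. The sort marker Cd4 stood at 453 ± 53.7 CPM in the CD4-positive libraries, against 22.7 ± 16.2 CPM in the CD4-negative ones (SD, n = 3 each, as for every mean ± SD here), and Tbx21, which encodes T-bet, at 397 ± 51.0 CPM over CD4-positive and 437 ± 180 CPM over CD4-negative libraries. CD4-positive replicate 1 and CD4-negative replicate 3 had the lowest shares of mitochondrial counts, 1.35% and 1.33%, while the other 4 libraries had 3.51% to 5.19%. CD4-negative replicate 3 also lay apart on the first principal component, at -90.2 against -2.31 to 32.2 in the others. The summed level of 14 markers of cycling cells was 1152, 1285 and 1073 CPM in CD4-positive replicates 1, 2 and 3, against 939, 1023 and 861 CPM in CD4-negative replicates 1, 2 and 3. The sums of the groups did not overlap. Of these markers 14 of 14 had a log2 difference above 0 (median 0.37), against 48.9% of all tested genes, with none past the test. Taken singly, 3 of 14 had non-overlapping groups (21.4%), against 9.41% of all tested genes. Summed markers of immature thymocytes were 46.3, 15.9 and 97.2 CPM in the CD4-positive libraries, against 49.4, 18.5 and 132 CPM in the CD4-negative ones, highest in replicate 3 of each group. The part of cycling cells, of thymocytes and of the mitochondrial share in the values below was not tested.

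No cholesterol gene passed the test between CD4-positive and CD4-negative NKT1 cells. By edgeR's quasi-likelihood test, with Benjamini-Hochberg adjustment over all tested genes, 0 of 29 were called at 0.05, against 0.212% of all tested genes. Each of the 29 had an adjusted edgeR p of 0.999993. Without adjustment the same test put 1 of 29 under 0.05 (3.45%), against 4.44% of all tested genes. DESeq2, limma-voom and limma-voom with sample quality weights also called 0 of the 29. Log2 differences ran from -0.15 for Pmvk to 0.49 for Sqle, with 18 of 29 above 0 (62.1%), against 48.9% of all tested genes. In bulk RNA a change in the number of cells that express a gene and a change in RNA per cell cannot be told apart.

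The 95% interval of the log2 difference lay inside a 2-fold change in either direction for 22 of 29 genes (75.9%), against 65.1% of all tested genes. The 7 genes with wider intervals were Sqle, Tm7sf2, Hsd17b7, Dhcr7, Insig2, Nr1h3 and Mylip. For 28 of 29 genes the difference between the group means was smaller than the range of the replicates in the more variable group, Cyp51 being the exception.

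**Figure D1:**
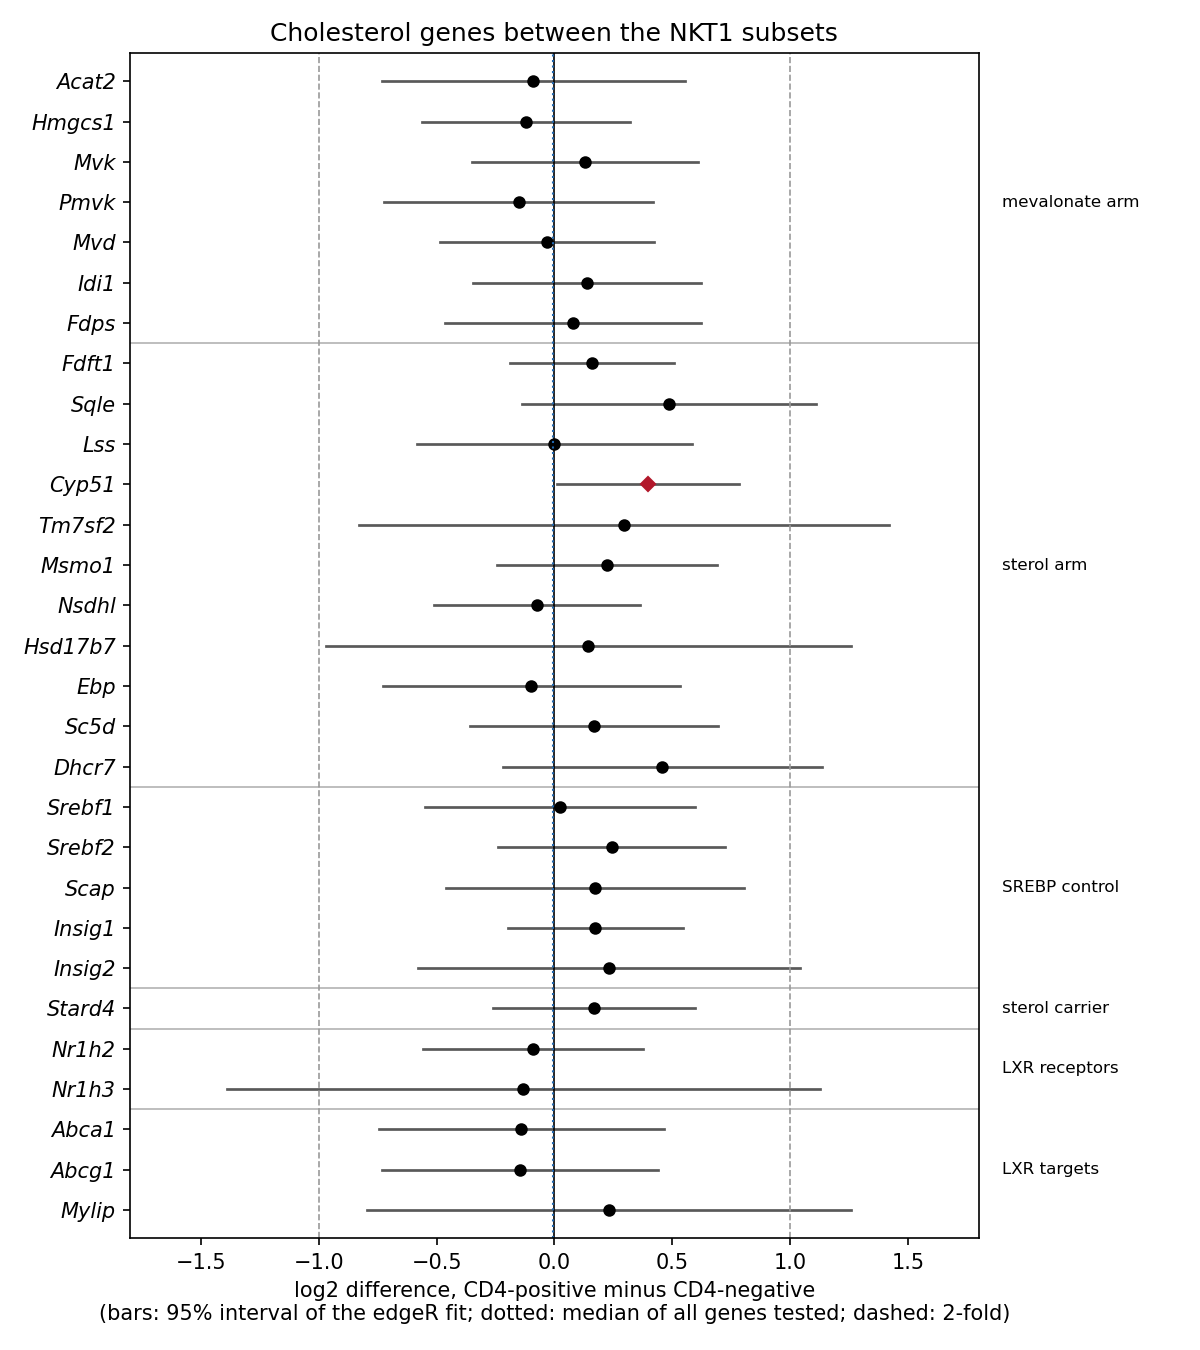
Log2 difference (CD4-positive minus CD4-negative) of each of the 29 genes, by role, with the 95% interval of the edgeR fit. The diamond marks Cyp51, the gene whose groups did not overlap, and 22 of 29 intervals lie inside the dashed lines of a 2-fold change.

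The 7 enzymes of the mevalonate arm had a median log2 difference of -0.03, with 3 above 0 and 4 below, and the 95% intervals of all 7 stayed within a 2-fold change. Hmgcs1, which condenses acetoacetyl-CoA with acetyl-CoA to HMG-CoA, stood at 32.8, 32.0 and 29.3 CPM in CD4-positive replicates 1, 2 and 3, against 28.6, 31.5 and 42.3 CPM in CD4-negative replicates 1, 2 and 3. The groups overlapped, and CD4-negative replicate 3 was the highest library (log2 -0.12, SE 0.19, interval -0.56 to 0.32). Idi1, which isomerises the C5 building block isopentenyl diphosphate, stood at 14.0, 22.9 and 19.5 CPM in the CD4-positive libraries, against 16.5, 17.8 and 16.9 CPM in the CD4-negative ones. Its CD4-positive libraries included both the lowest and the highest value of the 6 (log2 0.14, SE 0.21, interval -0.35 to 0.62). Farnesyl diphosphate synthase (Fdps) averaged 22.5 ± 2.99 CPM in the CD4-positive libraries, against 21.3 ± 6.12 CPM in the CD4-negative ones. The cytosolic thiolase Acat2, which makes acetoacetyl-CoA, averaged 17.6 ± 5.12 CPM over CD4-positive libraries and 18.7 ± 5.15 CPM over CD4-negative libraries. The mevalonate kinases Mvk and Pmvk and the decarboxylase Mvd lay between 7.42 and 15.1 CPM in every library.

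The sterol arm held the gene with the smallest p of the set. Cyp51, the lanosterol 14-alpha-demethylase, stood at 15.6, 17.4 and 18.6 CPM in CD4-positive replicates 1, 2 and 3, against 11.6, 13.9 and 13.7 CPM in CD4-negative replicates 1, 2 and 3. Every CD4-positive library lay above every CD4-negative library, a 1.32-fold difference (log2 0.40, SE 0.17, interval 0.01 to 0.78). It was the only member whose groups did not overlap, 1 of 29 or 3.45%, where 4.84% of all tested genes had non-overlapping groups with the higher level in CD4-positive cells and 4.57% with the lower. Its unadjusted edgeR p was 0.0455, and its adjusted edgeR p was 0.999993. Cyp51 lies on chromosome 5 from 4081145 to 4104746 on the minus strand (GRCm38) and shares 166 exonic bases with Akap9 on the other strand. Akap9 ran differently between libraries, at 56.5, 66.1 and 27.2 CPM in the CD4-positive libraries, against 66.1, 61.8 and 15.5 CPM in the CD4-negative ones.

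Squalene epoxidase (Sqle), the rate-limiting enzyme at the entry to the sterol rings, stood at 4.83, 5.24 and 3.63 CPM in CD4-positive replicates 1, 2 and 3, against 3.29, 2.61 and 3.89 CPM in CD4-negative replicates 1, 2 and 3. The groups overlapped, because CD4-positive replicate 3 lay below CD4-negative replicate 3 (log2 0.49, SE 0.27, interval -0.14 to 1.11). Dhcr7, the reductase of the last step from 7-dehydrocholesterol to cholesterol, averaged 38.6 ± 13.3 CPM in the CD4-positive libraries, against 28.1 ± 5.95 CPM in the CD4-negative ones (log2 0.46, SE 0.29). Over the 11 sterol-arm genes the median log2 difference was 0.17, with 8 above 0 and 3 below. The other enzymes had differences of -0.10 to 0.30 and overlapping groups. They were squalene synthase (Fdft1), lanosterol synthase (Lss), the sterol reductase Tm7sf2, the C4-demethylation enzymes Msmo1, Nsdhl and Hsd17b7, the sterol isomerase Ebp and the desaturase Sc5d. Lss averaged 19.2 ± 5.15 CPM in the CD4-positive libraries, against 19.2 ± 3.80 CPM in the CD4-negative ones. Tm7sf2 rested on as few as 29 counts in a library.

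**Figure D2:**
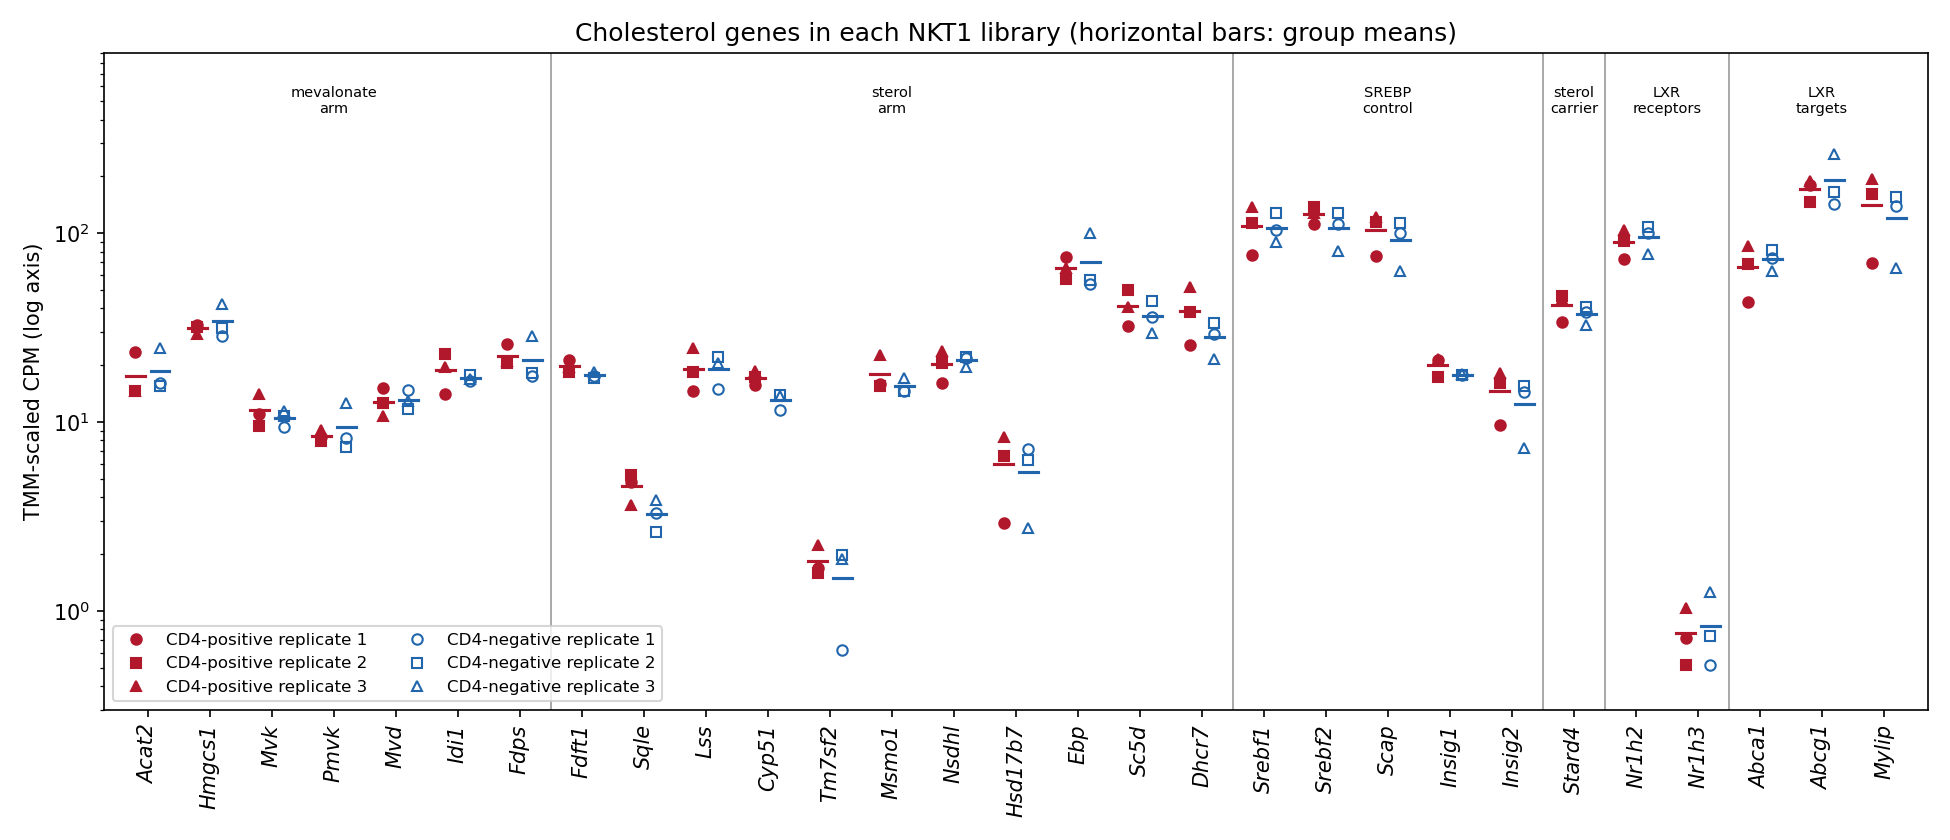
TMM-scaled CPM (log axis) of each of the 29 genes in each library, CD4-positive libraries filled and CD4-negative libraries open, with bars at the group means. Groups overlap for every gene but Cyp51, and the lowest level is that of Nr1h3 (0.516 to 1.25 CPM).

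The 20 members that are targets of SREBP2 (both arms, Insig1 and Stard4) had a median log2 difference of 0.14, beside -0.01 over all tested genes. Of these, 13 of 20 lay above 0 (65%), against 48.9% of all tested genes. The mevalonate arm among them had a median of -0.03 and the sterol arm 0.17. Their summed level was 412, 433 and 467 CPM in CD4-positive replicates 1, 2 and 3, against 377, 407 and 450 CPM in CD4-negative replicates 1, 2 and 3. CD4-positive replicate 3 was the highest and CD4-negative replicate 1 the lowest library, and the groups overlapped. The median stayed above 0 under each of 17 alternatives, from 0.07 without CD4-positive replicate 2 to 0.20 without CD4-positive replicate 1 and CD4-negative replicate 3. These alternatives refit the same libraries or some of them, so the steady sign is not independent evidence of a difference.

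Promoter sequences of 24 of the 29 genes were found in RefSeq (GRCm38.p6), as windows from 250 bases before to 50 bases after each annotated start. Abcg1, Fdft1, Fdps, Sqle and Stard4 are the others. A core of the sterol regulatory element, TCACNCCAC on either strand, was present in 1 of 24 genes, Hmgcs1, and in 1.44% of all 27025 genes with a window. The CCAAT box, bound by NF-Y, a partner of SREBP2, was present in 19 of 24 genes, against 41.1% of all genes, and the GC box GGGCGG, which Sp1 binds, in 21 of 24 genes, against 38.2%. A gene counted when any of its windows matched, so genes with several windows, such as Insig2 and Dhcr7, had more chances. All genes here include genes without enough counts to be tested, whereas all members had enough. The part of either in these shares was not tested. LXR binds direct repeats with 4 bases between the copies. The 1 form searched, with AGGTCA exactly in both copies, was present in 0 of 24 genes and in 4 of 27025 genes (0.0148%). With these exact letters so rare in all genes, the 0 cannot decide whether the windows hold LXR sites. The motifs were matched letter by letter on both strands, and a match or its absence describes only these letters in these windows. Sites with other letters were not searched for, so an absence does not show that a window lacks a site for SREBP2 or LXR. Hmgcs1 is shown for the sterol element at position -137 from the start. Cyp51 is shown because its groups did not overlap, Mvk because it has 5 CCAAT boxes, and Abca1, an LXR target, because it has no CCAAT box. The windows are chr13:119690101-119690400 (plus strand), chr5:4104648-4104947 (minus), chr5:114444019-114444318 (plus) and chr4:53159846-53160145 (minus), each printed 5′ to 3′ on the gene's own strand. Capitals mark the sterol element core and CCAAT boxes in either orientation.
Hmgcs1: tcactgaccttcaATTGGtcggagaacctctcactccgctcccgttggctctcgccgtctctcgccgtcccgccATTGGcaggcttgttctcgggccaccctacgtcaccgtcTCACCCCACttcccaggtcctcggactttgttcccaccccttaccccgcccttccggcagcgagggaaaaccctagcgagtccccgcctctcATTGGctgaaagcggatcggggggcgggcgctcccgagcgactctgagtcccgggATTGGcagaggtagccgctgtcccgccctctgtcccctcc
Cyp51: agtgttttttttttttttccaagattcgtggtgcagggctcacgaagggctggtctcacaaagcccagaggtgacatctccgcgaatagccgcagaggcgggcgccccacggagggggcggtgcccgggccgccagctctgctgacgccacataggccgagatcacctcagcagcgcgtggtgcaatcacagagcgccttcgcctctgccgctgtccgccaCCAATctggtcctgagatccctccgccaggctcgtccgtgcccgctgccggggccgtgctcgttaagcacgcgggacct
Mvk: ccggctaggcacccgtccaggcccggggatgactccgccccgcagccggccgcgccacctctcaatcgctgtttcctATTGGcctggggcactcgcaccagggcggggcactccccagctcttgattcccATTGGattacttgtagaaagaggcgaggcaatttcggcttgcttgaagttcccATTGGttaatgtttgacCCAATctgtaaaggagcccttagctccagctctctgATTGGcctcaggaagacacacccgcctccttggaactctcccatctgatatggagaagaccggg
Abca1: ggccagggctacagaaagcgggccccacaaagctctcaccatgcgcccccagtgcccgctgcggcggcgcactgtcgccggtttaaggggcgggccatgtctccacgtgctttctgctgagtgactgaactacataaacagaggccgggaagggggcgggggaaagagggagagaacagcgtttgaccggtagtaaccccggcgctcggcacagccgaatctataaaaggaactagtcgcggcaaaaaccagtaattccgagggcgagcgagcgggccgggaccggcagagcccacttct

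None of the 5 genes of SREBP control passed the test. Srebf2, which encodes SREBP2, stood at 112, 138 and 128 CPM in CD4-positive replicates 1, 2 and 3, against 111, 129 and 80.1 CPM in CD4-negative replicates 1, 2 and 3. Only CD4-negative replicate 3 lay clearly below the rest (log2 0.24, SE 0.21, interval -0.24 to 0.73). Srebf1, whose product SREBP1 drives mainly fatty acid synthesis and which is itself an LXR target, stood at 77.1, 113 and 137 CPM in the CD4-positive libraries, against 104, 128 and 89.5 CPM in the CD4-negative ones. Its means were 109 ± 30.1 CPM over CD4-positive and 107 ± 19.6 CPM over CD4-negative libraries, CD4-positive libraries holding the lowest and the highest value (log2 0.02, SE 0.25). The escort Scap averaged 104 ± 24.5 CPM in the CD4-positive libraries, against 92.3 ± 25.8 CPM in the CD4-negative ones.

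Insig1, the INSIG gene that SREBP2 itself induces, varied little between libraries. It stood at 21.4, 17.4 and 21.6 CPM in CD4-positive replicates 1, 2 and 3, against 17.8, 17.7 and 18.0 CPM in CD4-negative replicates 1, 2 and 3. The CD4-negative libraries lay within 0.263 CPM of each other, and CD4-positive replicate 2 lay just below them (log2 0.17, SE 0.16, interval -0.20 to 0.54). Its paralog Insig2 varied more, at 9.69, 16.0 and 18.1 CPM in the CD4-positive libraries, against 14.4, 15.6 and 7.26 CPM in the CD4-negative ones. Its lowest values were in CD4-positive replicate 1 and CD4-negative replicate 3 (log2 0.23, SE 0.35). All 5 genes of SREBP control had a difference above 0 (median 0.17) with overlapping groups, but without CD4-negative replicate 3 the difference was above 0 for 2 of 5. Stard4, a soluble carrier of sterol between membranes, stood at 34.0, 46.4 and 44.9 CPM in the CD4-positive libraries, against 38.1, 40.9 and 32.5 CPM in the CD4-negative ones. Its groups overlapped, again with CD4-positive replicate 1 and CD4-negative replicate 3 lowest (log2 0.17, SE 0.18).

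Of the 2 LXR receptors, the beta form had by far the higher level per length in both subsets. Nr1h2 (LXR beta) stood at 73.1, 90.9 and 105 CPM in CD4-positive replicates 1, 2 and 3, against 100, 108 and 77.7 CPM in CD4-negative replicates 1, 2 and 3. The groups overlapped (log2 -0.09, SE 0.20, interval -0.56 to 0.37). Nr1h3 (LXR alpha), known from macrophages and liver, stood at 0.720, 0.521 and 1.04 CPM in the CD4-positive libraries, against 0.516, 0.740 and 1.25 CPM in the CD4-negative ones, with as few as 24 counts in a library. Per kilobase of exon, Nr1h2 was at 26.7 ± 4.72 CPM per kb and Nr1h3 at 0.302 ± 0.104 CPM per kb in CD4-positive libraries, and Nr1h2 at 28.5 ± 4.75 CPM per kb and Nr1h3 at 0.333 ± 0.150 CPM per kb in CD4-negative libraries. Markers of macrophages and other myeloid cells were near 0: Csf1r and Adgre1 had at most 0.0925 and 0.193 CPM in any library, and all 7 markers summed to 1.60 to 1.89 CPM in the CD4-positive libraries, against 1.70 to 3.16 CPM in the CD4-negative ones.

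None of the 3 LXR targets passed the test. Abcg1, a pump that passes cholesterol to high-density lipoprotein, stood at 180, 147 and 189 CPM in CD4-positive replicates 1, 2 and 3, against 143, 166 and 262 CPM in CD4-negative replicates 1, 2 and 3. CD4-negative libraries held both the lowest and the highest value (log2 -0.14, SE 0.25, interval -0.73 to 0.44). Abca1, the pump that loads lipid onto apolipoprotein A-I, stood at 43.3, 69.0 and 85.7 CPM in the CD4-positive libraries, against 73.8, 81.4 and 62.9 CPM in the CD4-negative ones. CD4-positive replicate 1 was the lowest library and CD4-positive replicate 3 the highest (log2 -0.14, SE 0.26, interval -0.74 to 0.46). Mylip, a ubiquitin ligase that sends receptors for low-density lipoprotein to degradation, averaged 141 ± 64.4 CPM in the CD4-positive libraries, against 120 ± 48.3 CPM in the CD4-negative ones (log2 0.23, SE 0.44). The 3 targets had a median log2 difference of -0.14, and this sign was not stable: the median was 0.09 without CD4-positive replicate 1 and -0.36 in replicates 1 and 2 alone.

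Levels can be ordered between genes per kilobase of merged exon. Mylip ranked first at 43.7 ± 19.9 CPM per kb in CD4-positive and 37.2 ± 14.9 CPM per kb in CD4-negative libraries. Ebp followed at 28.5 ± 3.94 CPM per kb over CD4-positive and 30.5 ± 11.4 CPM per kb over CD4-negative libraries. Nr1h2 came next, then Abcg1 at 23.6 ± 3.05 CPM per kb over CD4-positive and 26.1 ± 8.68 CPM per kb over CD4-negative libraries. The spreads of these 4 genes overlap, so their order is not fixed. The means of the SREBP genes came next, where the CD4-positive libraries held 19.3 ± 5.34 CPM per kb of Srebf1, 17.6 ± 1.85 of Srebf2 and 14.0 ± 3.29 of Scap, and the CD4-negative libraries held 19.0 ± 3.48, 14.9 ± 3.42 and 12.4 ± 3.47 of the same genes. These 3 overlap among themselves. Within 1 SD of the means, Srebf1 also overlaps Mylip, Ebp, Nr1h2 and Abcg1 in at least 1 group, and Srebf2 overlaps Abcg1 in CD4-negative libraries. The lowest 3 by mean were Sqle, Tm7sf2 and Nr1h3, but Hsd17b7 lay below Sqle in CD4-positive replicate 1 (0.572 against 0.872 CPM per kb) and in CD4-negative replicate 3 (0.537 against 0.701 CPM per kb). Sqle stood at 0.824 ± 0.152 CPM per kb over CD4-positive and 0.588 ± 0.115 CPM per kb over CD4-negative libraries, and Tm7sf2 at 0.417 ± 0.0800 CPM per kb over CD4-positive and 0.339 ± 0.172 CPM per kb over CD4-negative libraries. Ebp thus exceeded every other enzyme of either arm per kilobase. The next by mean was Sc5d at 8.42 ± 1.86 CPM per kb in CD4-positive and 7.50 ± 1.43 CPM per kb in CD4-negative libraries. Nsdhl at 7.46 ± 0.489 and Hmgcs1 at 7.43 ± 1.58 CPM per kb were close to Sc5d in CD4-negative libraries, so the order below Ebp is not fixed. Merged exons count every annotated isoform, which lowers the values of genes with many, such as Lss (10.8 kb).

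The 6 libraries varied more for some genes than for others. The ratio of the highest to the lowest library ran from 1.25 for Fdft1 to 3.59 for Tm7sf2. Among the clearest cases, chosen after their values were seen, Mylip stood at 69.5, 161 and 194 CPM in CD4-positive replicates 1, 2 and 3, against 140, 156 and 65.4 CPM in CD4-negative replicates 1, 2 and 3. Hsd17b7 stood at 2.92, 6.65 and 8.39 CPM in the CD4-positive libraries, against 7.21, 6.29 and 2.74 CPM in the CD4-negative ones. In both genes CD4-positive replicate 1 and CD4-negative replicate 3, the libraries with the lowest mitochondrial shares, lay below all others. Ebp ran the other way, at 75.1, 56.9 and 65.4 CPM in the CD4-positive libraries, against 53.6, 56.9 and 101 CPM in the CD4-negative ones.

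Those 2 libraries were both below the other 4 for 11 of 29 members (37.9%), against 22.3% of all tested genes, and both above them for 4 of 29 (13.8%), against 21.4%. The 11 were Nsdhl, Hsd17b7, Sc5d, Dhcr7, Srebf1, Scap, Insig2, Stard4, Nr1h2, Abca1 and Mylip, and thus held SREBP control genes, an LXR receptor and LXR targets beside enzymes. The 4 were Acat2, Hmgcs1, Fdps and Ebp, all enzymes. Merged exon length had a median of 5.10 kb over the 11 and 3.38 kb over the 4, and of 5.35 kb and 3.16 kb over all tested genes with the same order of libraries. The libraries were picked after their mitochondrial shares were seen, and these counts are a description with no test. The part of length and of RNA quality in them was not tested. Without these 2 libraries edgeR called 0 of 29 members, against 0.511% of 12906 genes tested there, and 25 of 29 differences were above 0, against 50.8% of those genes. The members had a smallest adjusted edgeR p of 0.353 (Cyp51, log2 0.50). This fit had 2 libraries a group. Replicate 3 of each group was named by another scheme than the other replicates, and of these only CD4-positive replicate 3 was left. Group and naming scheme were thus unbalanced, and the part of the scheme in the 25 was not tested. In replicates 1 and 2 alone, 19 of 29 differences were above 0, against 50.8% of genes tested there.

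**Figure D3:**
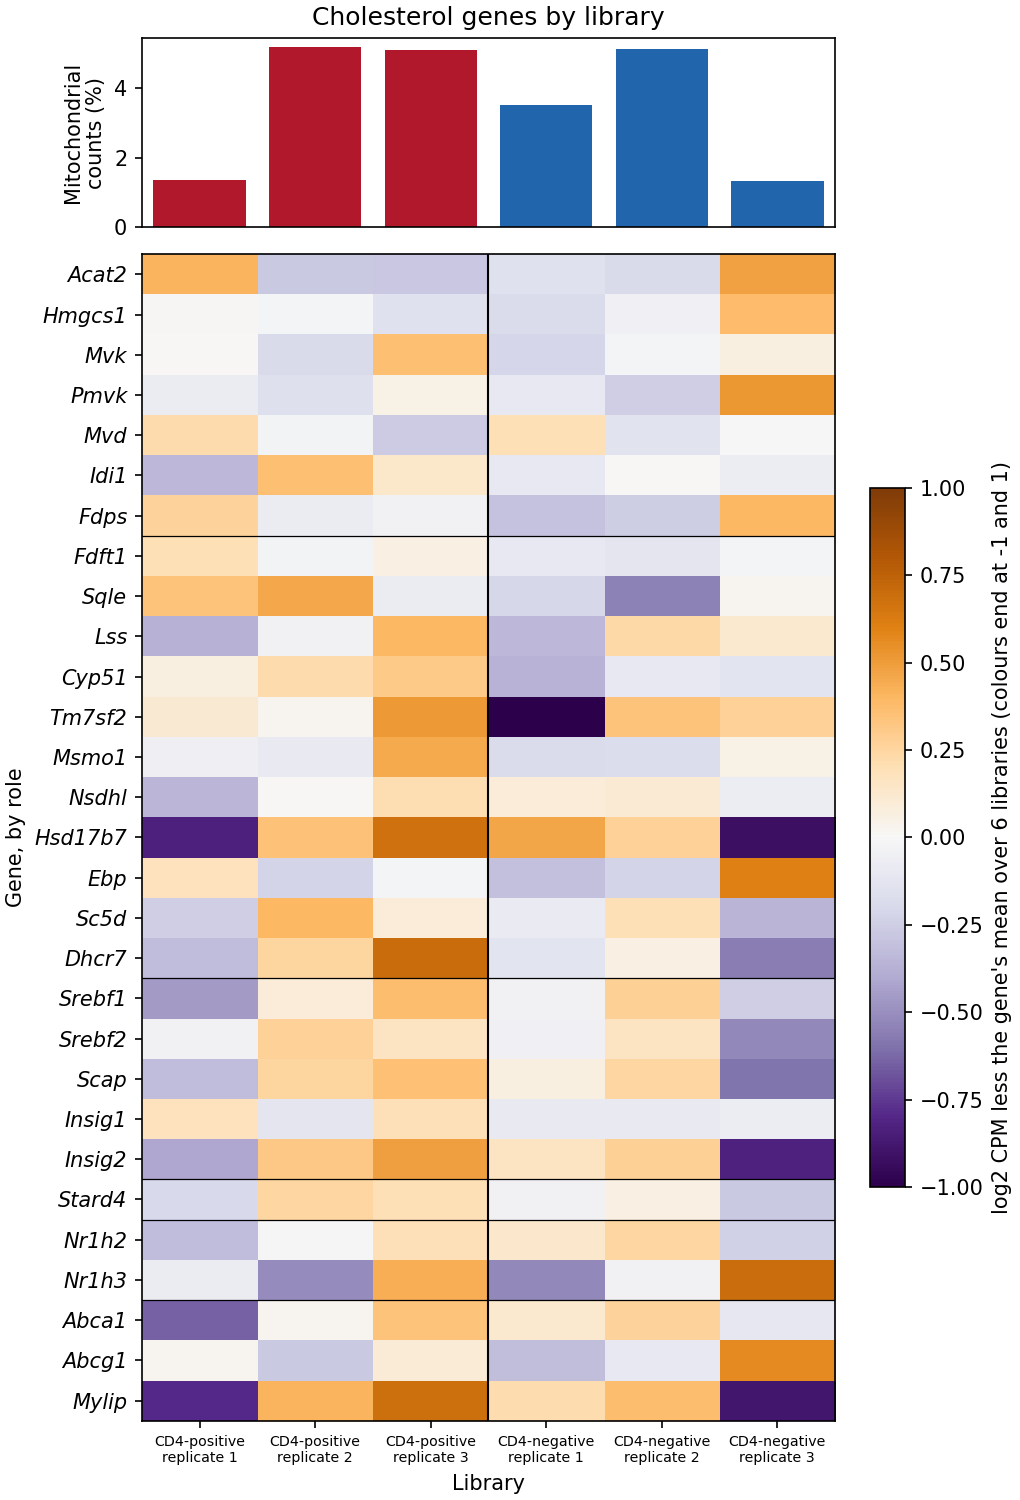
Upper panel, share of counts on mitochondrial genes in each library. Lower panel, log2 CPM (prior count of 2) of each of the 29 genes less its mean over the 6 libraries, where CD4-positive replicate 1 and CD4-negative replicate 3 share low values for genes such as Hsd17b7, Insig2 and Mylip.

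Lists of neighbouring pathways, chosen with earlier results of these data known, gave 1 called gene. Pltp, which encodes a phospholipid transfer protein and is an LXR target outside the 29, stood at 3.54, 4.13 and 3.70 CPM in CD4-positive replicates 1, 2 and 3, against 14.4, 16.5 and 16.1 CPM in CD4-negative replicates 1, 2 and 3. The groups did not overlap (log2 -2.05, SE 0.18, adjusted p by edgeR's quasi-likelihood test = 0.0201), while its estimated counts were fractional in all 6 libraries, as estimates are where reads map to several genes. The call was lost in 7 of 17 alternatives, while the log2 difference stayed between -2.11 and -1.97 in all 17. The adjusted p by edgeR's quasi-likelihood test was 0.0981 with a replicate block and 0.0962 in replicates 1 and 2 alone. It was 0.0713, 0.175 and 0.180 by the same edgeR test without CD4-positive replicates 1, 2 and 3 in turn, and 0.0944 and 0.0641 without CD4-negative replicates 1 and 2 in turn. Of 6 listed further LXR targets, 3 were tested and 1 was called, lower. The tested others, the lysophospholipid acyltransferase Lpcat3 and the phosphodiesterase Smpdl3a, had log2 differences of 0.28 each and overlapping groups.

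Fatty acid synthesis genes, which SREBP1 drives, had a median log2 difference of 0.15 over 11 tested of 13 listed, with none called. The 2 with the smallest p lay on opposite sides. Acss2, which activates acetate to acetyl-CoA, stood at 11.3, 13.8 and 15.7 CPM in the CD4-positive libraries, against 22.6, 23.1 and 19.2 CPM in the CD4-negative ones (log2 -0.67, SE 0.18, adjusted p by edgeR's quasi-likelihood test = 0.479). The delta-5 desaturase Fads1 stood at 37.5, 40.0 and 39.5 CPM in the CD4-positive libraries, against 29.3, 27.0 and 18.5 CPM in the CD4-negative ones (log2 0.65, SE 0.20, adjusted p by edgeR's quasi-likelihood test = 0.683). The groups of both genes did not overlap, nor did those of Acaca and Elovl6, where every CD4-positive library lay above every CD4-negative one. That made 4 of 11 tested genes of this list (36.4%), against 9.41% of all tested genes, with no test of the list. Limma-voom with quality weights, alone among 17 alternatives, called Acss2 (adjusted p = 0.0429, over a range of 0.0429 to 1 in all 17). Genes of SREBP processing and sterol-regulated degradation (10 tested, median 0.07), of the isoprenoid branches (9 tested, median -0.10) and of sterol uptake, transport, storage and oxidation (15 tested of 19, median 0.00) had none called. Their smallest p-values belonged to the sterol-binding protein Tmem97 (log2 0.43) with the sterol-responsive ligase Rnf145 (0.15), to the geranylgeranyl diphosphate synthase Ggps1 (-0.19) with the farnesyltransferase subunit Fntb (0.27), and to the lipoprotein receptor Lrp8 (0.40) with Gramd1c (-0.35), a sterol transporter.

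**Figure D4:**
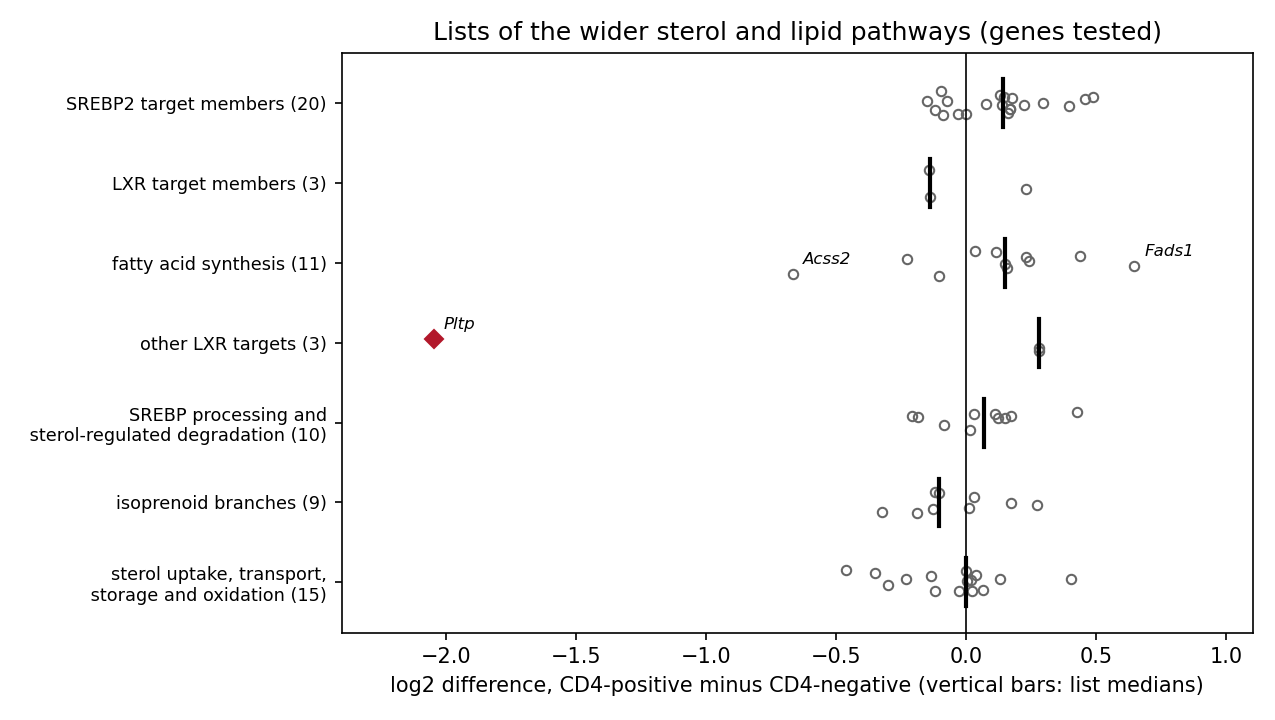
Log2 differences (CD4-positive minus CD4-negative) of the tested genes of each list, with the number tested in brackets and a bar at the list median. Points are jittered vertically, the filled diamond is Pltp, the called gene, and Acss2 and Fads1 are labelled.

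Some counts may hold reads of other genes. Estimated counts were fractional in all 6 libraries for Acat2 and Fdft1, in 5 for Fdps and Scap and in 4 for Idi1 and Tm7sf2. Acat2 has a near copy, Acat3, at 0.198 ± 0.0719 CPM in the CD4-positive libraries, against 0.219 ± 0.172 CPM in the CD4-negative ones. Fdft1 shares 774 exonic bases with Ctsb on the other strand, which averaged 290 ± 37.1 CPM over CD4-positive and 228 ± 34.8 CPM over CD4-negative libraries. Tm7sf2 shares 532 with Vps51 on its own strand, which averaged 29.5 ± 3.88 CPM over CD4-positive and 28.6 ± 6.17 CPM over CD4-negative libraries. Counts were fractional in 6 libraries for Ctsb, as for Fdft1, and in 0 libraries for Cyp51 and for Akap9, which overlaps it. The strand setting of the counting is not given in the sources used here. Whether reads were shared where Fdft1 and Ctsb, or Cyp51 and Akap9, overlap was not tested.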

How the data were processed

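RNA of 3 CD4-positive and 3 CD4-negative samples was sequenced in paired ends from stranded mRNA libraries, per the labels' protocols. The submitters' processing notes name STAR, Picard, RSEM and mm10. Versions, gene annotation and the strand option: not given in the sources used here. Per gene, the authors deposited estimated counts, with no normalisation, of which 6.23% to 8.68% were fractional per library. They were rounded to whole numbers. One count was worth 0.0185 to 0.0261 TMM-scaled CPM.

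Genes were kept with edgeR's filterByExpr and tested in R 4.3.3 with edgeR 4.0.16 (TMM, robust quasi-likelihood test, group as the only term, Benjamini-Hochberg adjustment over all tested genes at 0.05). The scripts were checked on simulated data. Alternatives used DESeq2 1.42.0 and limma 3.58.1, other scalings and filters, batch terms and left-out libraries. Leaving out both libraries with low mitochondrial shares, and trying the alternatives on Pltp, Acss2 and Fads1, were chosen after seeing the data. P-values measure the spread between these samples, which may be technical.

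The members and lists were chosen with earlier results of these data known. Values per library were given for the 2 members of each role with the smallest p, for members with p under 0.05 or non-overlapping groups, and for paralog pairs, and for other lists the called genes or the 2 with the smallest p were named. Exon lengths came from GENCODE M21 on GRCm38.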

Additional observations from a re-analysis of the deposited data

How the results depend on the processing

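No member was called under any of 17 alternatives, and the smallest adjusted p of a member, by any tool run, lay between 0.262 (limma-voom with quality weights) and 1. Of all genes, 27 were called by edgeR's quasi-likelihood test as reported. DESeq2 called 162, limma-voom with quality weights 180, edgeR without a filter on low counts 67, with the naming scheme of the libraries as a batch term 11, and in replicates 1 and 2 only 9. Leaving out libraries gave 0 to 66 calls: 44 without CD4-negative replicate 3, 66 without CD4-positive replicate 1 and CD4-negative replicate 3, and 0 without any other single library. The causes were not tested. With a replicate block the count was 0. Deviations of same-numbered libraries correlated at -0.08, 0.343 and 0.0362, and those of differently numbered ones at -0.346 to 0.244. The library names match between same-numbered libraries too, but the labels do not say what is shared. With 3 libraries a group these correlations cannot decide whether the libraries are pairs. The reported test took group as its only term.

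The median log2 difference of LXR targets changed sign with quality weights (0.05), without CD4-positive replicate 1 (0.09) and without both libraries named above (0.13). Tm7sf2, Sqle and Nr1h3 were not tested with a filter at a mean of 5 CPM. The number of libraries, 3 a group, limits the precision that the intervals give.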
